A study of Mus musculus with 2 samples.

Results

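The MHC genes of the mouse liver were taken as every gene symbol of the deposited table that begins with H2-, the prefix of the mouse MHC, together with *B2m*, *Cd74*, *Ciita*, *Nlrc5*, *Tap1*, *Tap2* and *Tapbp*. This rule used names and no measured value, though it was chosen with earlier results of these data known. It found 48 genes on 120 of the 129299 transcripts, out of 45777 genes in all. By symbol, 30 were class I heavy chains, 5 were genes that load or control class I (*B2m*, *Tap1*, *Tap2*, *Tapbp* and *Nlrc5*), 10 were class II chains, and *Cd74* and *Ciita* serve class II. The remaining symbol, *H2-Ke6*, encodes a steroid dehydrogenase and was kept apart, since it is not an MHC chain. On chromosome 17 of the genome build mm10, 44 of the 48 genes lay between bases 33919478 and 37483554, and the other 4, *B2m*, *Nlrc5*, *Cd74* and *Ciita*, lay on other chromosomes.

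Liver RNA was taken after 18 weeks of HFD from C57BL/6 N mice put on the diet at the age of 7 weeks, and the comparison asks how expression of *Wee1-AS*, a lncRNA antisense to *Wee1*, altered the liver transcriptome under this diet. Control mice received AAV-GFP and the other group AAV-*Wee1-AS*, given by retro-orbital injection at week 13 of the diet, 5 weeks before its end. The AAV-*Wee1-AS* vector used an AAV9 serotype and a CMV promoter, neither of which is specific for hepatocytes, and *Wee1-AS* itself was not analysed here. One library of poly-A RNA per group was analysed, so that every difference below lacks a replicate check, no p-value is given, and each interval (95%, exact) covers counting error only.

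The AAV-GFP library held 55466182 estimated counts and the AAV-*Wee1-AS* library 48079335. Of all genes, 15857 had at least 10 counts in at least 1 library, and their median log2 ratio of AAV-*Wee1-AS* over AAV-GFP was -0.00 after TMM scaling, with 31% of them more than 2-fold apart in either direction. *Alb*, the serum albumin of hepatocytes, stood at 37459 and 53289 TPM (a level per transcript length that sums to the same total in each library).

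MHC class I molecules are made of a heavy chain and β2-microglobulin, are found on nearly all nucleated cells, and carry peptides from the cytosol that the TAP transporter brings to them. MHC class II molecules are pairs of an α and a β chain made by dendritic cells, B cells, macrophages and few other cells, and they carry peptides from endosomes after the invariant chain CD74 has been removed. NLRC5 and CIITA are the related transactivators of the class I and the class II genes, and neither binds DNA alone, since both act through factors bound to promoter elements named the X and Y boxes.

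The promoters are shown first, because letters of the elements through which CIITA and interferons act recur among them. Windows of RefSeq promoters (GRCm38.p6, 250 bases before to 50 bases after the start of the transcript) were found for 35 of the 48 genes and for 24 of the 35 that passed the count filter. The letters searched on both strands were TGATTGG (core of the Y box), CNNATGATG (core of the X box) and AANNGAAAC (from the interferon-stimulated response element, ISRE), all chosen after these promoters had been read, and no match overlapped another in the windows shown. The Y box letters were in 7 of 8 class II genes and in 9 of 15 class I genes, against 7.82% of 32851 promoters. The X box letters were in 4 class II genes (*H2-Eb1*, *H2-DMb1*, *H2-DMb2* and *H2-Ob*) and in 2 class I genes (*H2-T23* and *H2-T-ps*), against 2.75% of all promoters. These 6 genes held the Y box letters too, a pair found in 57 promoters of all (0.174%). In the class II windows below, each on the strand of its gene, capitals mark the X and Y box letters, with positions counted from the start of the transcript.

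H2-Aa, chr17:34287859-34287923, minus strand, -100 to -36: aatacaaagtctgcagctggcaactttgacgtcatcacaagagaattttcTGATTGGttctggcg
H2-Eb1, chr17:34305756-34305820, plus strand, -111 to -47: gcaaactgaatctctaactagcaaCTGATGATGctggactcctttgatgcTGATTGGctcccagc
H2-DMb1, chr17:34153078-34153142, plus strand, -113 to -49: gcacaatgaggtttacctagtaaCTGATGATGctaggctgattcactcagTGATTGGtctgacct
H2-Ob, chr17:34238796-34238860, plus strand, -109 to -45: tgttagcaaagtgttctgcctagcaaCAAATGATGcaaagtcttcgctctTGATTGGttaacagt
H2-Oa, chr17:34092284-34092348, plus strand, -95 to -31: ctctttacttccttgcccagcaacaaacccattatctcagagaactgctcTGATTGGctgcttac

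The ISRE letters were found in 9 of the 15 class I genes and in 2 of the 8 class II genes (*H2-Eb2* and *H2-Oa*), against 5.77% of all promoters. The class I windows show the 3 most abundant heavy chain genes and *H2-Q7*, which lie in nearly the same sequence, with the ISRE letters (on the opposite strand, hence read in reverse complement) in capitals.

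H2-K1, chr17:34000410-34000483, minus strand, -150 to -77: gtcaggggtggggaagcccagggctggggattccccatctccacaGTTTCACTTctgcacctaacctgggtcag
H2-D1, chr17:35262898-35262971, plus strand, -196 to -123: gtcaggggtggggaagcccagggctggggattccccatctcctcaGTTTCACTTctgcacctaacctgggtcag
H2-Q10, chr17:35469888-35469961, plus strand, -201 to -128: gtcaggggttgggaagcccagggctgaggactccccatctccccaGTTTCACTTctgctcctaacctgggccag
H2-Q7, chr17:35438996-35439069, plus strand, -159 to -86: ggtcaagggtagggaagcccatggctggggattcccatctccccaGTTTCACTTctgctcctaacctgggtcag

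A match is a description of letters, and binding was not measured in these livers.

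Class II genes were lower in the AAV-*Wee1-AS* liver as a group. Of the 12 class II genes, 11 passed the count filter, and 10 of these were more than 2-fold lower, against 8.43% of all genes, while none was more than 2-fold higher, against 22.5%. All 11 ratios lay below 1, with a median log2 ratio of -1.36 and a range from -1.73 to -0.78. For 7 of the 11 the whole counting interval lay below a ratio of 0.5, against 3.61% of all genes. With the trends of GC content and transcript length described below removed, 5 were more than 2-fold lower, against 8.12% of all genes. *H2-Ab1*, *Cd74* and the H2-DM genes were then within 2-fold, and the median was -0.93. In bulk liver RNA, fewer class II cells and less class II RNA per cell cannot be told apart.

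**Figure D1:**
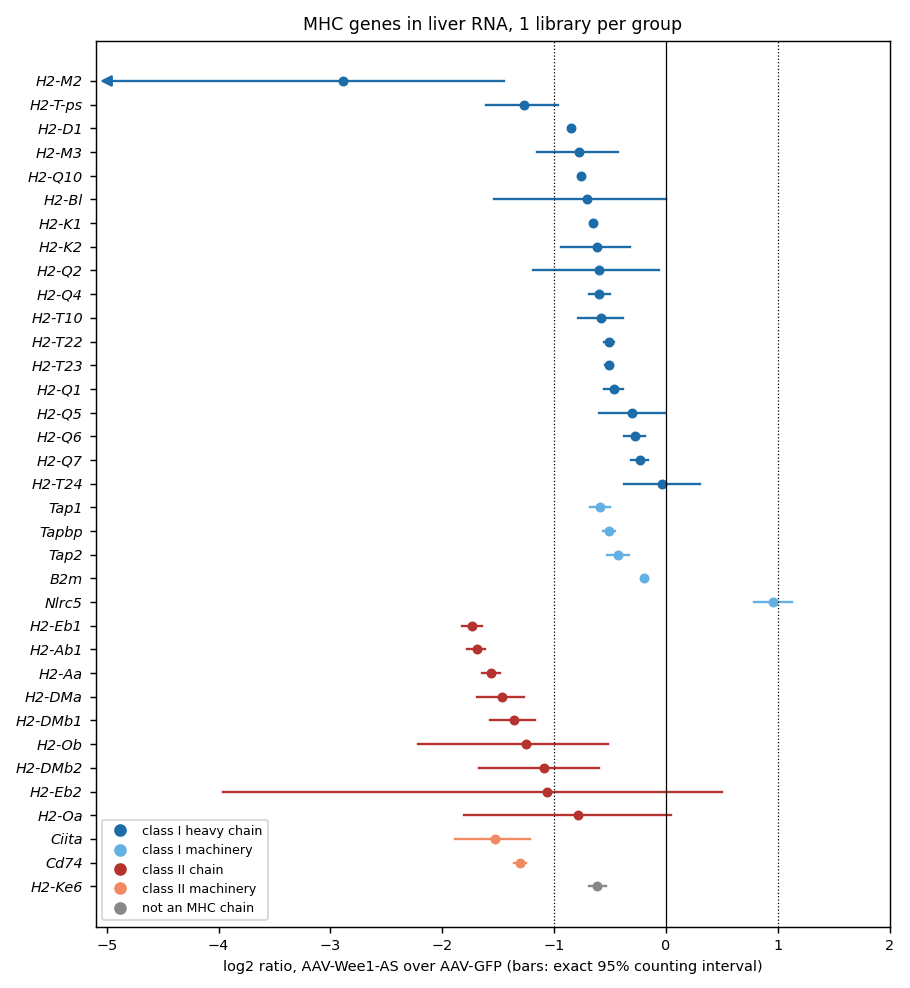
Log2 ratio of AAV-Wee1-AS over AAV-GFP (horizontal axis) for the 35 genes of the symbol rule, *H2-Ke6* included, that passed the count filter, 1 library per group. Points are TMM-scaled ratios, bars are exact 95% counting intervals, and dotted lines mark 2-fold; 10 of 11 class II genes lie left of the lower line, most class I genes lie between it and 0, *Nlrc5* lies at 0.95, and the arrow marks *H2-M2*, which had 0 counts in the AAV-*Wee1-AS* library.

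The I-A and I-E chain genes, whose products present peptides at the cell surface, gave most of the class II chain counts. *H2-Aa* (chr17:34282744-34287823), the α chain of I-A, had 5947 counts in the AAV-GFP and 1661 in the AAV-*Wee1-AS* library, or 160 and 52.8 TPM. Its log2 ratio was -1.56 (interval -1.64 to -1.48), which is 2.95-fold lower. *H2-Ab1* (chr17:34263227-34269418), the β chain of I-A, had 6249 and 1592 counts, 159 and 47.8 TPM, and a log2 ratio of -1.69 (-1.78 to -1.62). The I-A partners thus stood at nearly equal levels in both livers, the α to β ratio of TPM being 1.01 with AAV-GFP and 1.10 with AAV-*Wee1-AS*. With the trends of GC content and length removed, the log2 ratios of the α and β chain genes were -2.04 and -0.93. They were -1.25 and -0.88 with transcripts paired with RefSeq. *H2-Eb1* (chr17:34305867-34316674), the β chain of I-E, had 5168 and 1281 counts, 94.0 and 27.5 TPM, and a log2 ratio of -1.73 (-1.82 to -1.65). Its α chain partner, listed as the pseudogene *H2-Ea-ps*, was at 0 in both libraries; mice of the C57BL/6 strain are known to lack I-E for want of this chain. *H2-Aa*, *H2-Ab1* and *H2-Eb1* together had 17364 and 4534 counts, a log2 ratio of -1.66 (-1.71 to -1.61), of which *H2-Eb1* gave 29.8% (29.1 to 30.4) and 28.3% (26.9 to 29.6). *H2-Eb2*, a further β chain gene, had 10 and 3 counts, and the interval of its log2 ratio of -1.06 ran from -3.96 to 0.50.

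The chains that edit the peptides in endosomes were lower too, in sum by less, as the H2-DM genes together had a log2 ratio of -1.40 (-1.54 to -1.26). H2-DM exchanges the CD74 fragment for other peptides, and its chains are encoded by *H2-DMa*, *H2-DMb1* and *H2-DMb2*. *H2-DMb1* had 841 and 269 counts (log2 ratio -1.36, -1.57 to -1.17) and *H2-DMb2* had 111 and 42 (-1.09, -1.67 to -0.60), assigned to a coding model with AAV-GFP and to noncoding models with AAV-*Wee1-AS*. These paralogs share 13.7% and 12.9% of the 100-base windows of their longest transcripts with each other, so that a part of their counts can have been split between them, and their summed counts of 952 and 311 gave -1.34 (-1.53 to -1.15). *H2-DMa* had 836 and 248 counts (-1.47, -1.69 to -1.27), all assigned to a single transcript model of 7531 bases that overlaps *Brd2*, so its level per length of 3.37 and 1.18 TPM is uncertain. *Brd2* had 4618 and 3043 counts and a log2 ratio of -0.32. H2-O restrains H2-DM, chiefly in B cells. Its β chain *H2-Ob* had 52 and 17 counts (-1.25, -2.22 to -0.52) and its α chain *H2-Oa* 35 and 16. *H2-Oa* was the only class II gene within 2-fold, at -0.78, and its interval of -1.80 to 0.04 reached both 2-fold and 0. As a share of all class II chain counts, the 3 H2-DM genes made up 9.29% (8.88 to 9.71) with AAV-GFP and 10.9% (10.1 to 11.8) with AAV-*Wee1-AS*.

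*Cd74*, the invariant chain, was the most abundant class II gene. It had 12055 counts with AAV-GFP and 4030 with AAV-*Wee1-AS*, which is 283 and 112 TPM and a log2 ratio of -1.30 (-1.35 to -1.25). Relative to *H2-Aa*, the *Cd74* level was 1.77 and 2.12 in TPM, and thus it was lower by less than its partner chains. *Ciita* (chr16:10480014-10531064), the transactivator, had 347 and 98 counts (1.52 and 0.393 TPM), and its log2 ratio of -1.53 (-1.88 to -1.22) lay within the range of the chains. The 98 counts were all assigned to a model that was at 0 in the AAV-GFP library, hence only the sum over its models was compared. *Dexi*, which overlaps *Ciita*, had 877 and 535 counts and a log2 ratio of -0.43. Summed over the 10 class II chain genes, 19249 counts with AAV-GFP and 5129 with AAV-*Wee1-AS* gave 0.323 times the scaled count, a log2 ratio of -1.63 (-1.67 to -1.59).

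Class I genes were lower by less, and their direction depended on the trends of GC content and transcript length described below. Of the 35 class I genes, 12 heavy chain genes were at 0 in both libraries (*H2-M1*, *H2-M5*, *H2-M9*, *H2-M11*, *H2-T3* and the 7 *H2-M10* genes), and 23 passed the count filter. Of these, 2 were more than 2-fold lower, near the 8.43% of all genes, and none was more than 2-fold higher, against 22.5%. In all, 22 of the 23 had a ratio below 1, against 50.1% of all genes, and for 21 the counting interval lay wholly below it, against 37.4%. The median log2 ratio was -0.58, also with *H2-M2* placed at its bound. Thus 21 of the 23 class I genes lay between -0.85 and 0.95, while 10 of the 11 class II genes lay between -1.73 and -1.06. At 1000 counts or more in a library, where counting error is small, 13 class I genes had a median of -0.51 and 4 class II genes (*H2-Aa*, *H2-Ab1*, *H2-Eb1* and *Cd74*) a median of -1.63, beside -0.17 for 5592 genes of all kinds. With the trends removed, the median of the 23 class I genes was -0.043 and 14 of them lay below 0. Signs then turned for 8 of them, named below. With transcripts paired with RefSeq, the median was 0.063 and 9 of 21 lay below 0.

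The classical heavy chains, which present peptides to CD8 T cells, were among the most abundant RNAs of the liver. *H2-K1* (chr17:33996012-34000619) had 115928 counts with AAV-GFP and 60697 with AAV-*Wee1-AS*, 2128 and 1307 TPM, which is rank 62 and rank 109 among all genes. Its log2 ratio was -0.66 (-0.67 to -0.64). *H2-D1* (chr17:35263094-35267497) had 64913 and 29666 counts, 1135 and 612 TPM, and the lowest ratio of the abundant heavy chains, -0.85 (-0.87 to -0.83). *H2-Q10* (chr17:35470089-35474563), a liver heavy chain that is secreted, was the most abundant heavy chain in both libraries, with 216515 and 105480 counts, 4463 and 2566 TPM, and a log2 ratio of -0.76 (-0.77 to -0.75). The make-up of the heavy chain RNA was nearly alike in both livers. *H2-Q10* gave 49.7% of the heavy chain counts with AAV-GFP and 48.3% with AAV-*Wee1-AS*, and *H2-K1* with *H2-D1* gave 41.5% and 41.4%. All heavy chain counts together, 435620 and 218526, had a log2 ratio of -0.72.

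**Figure D2:**
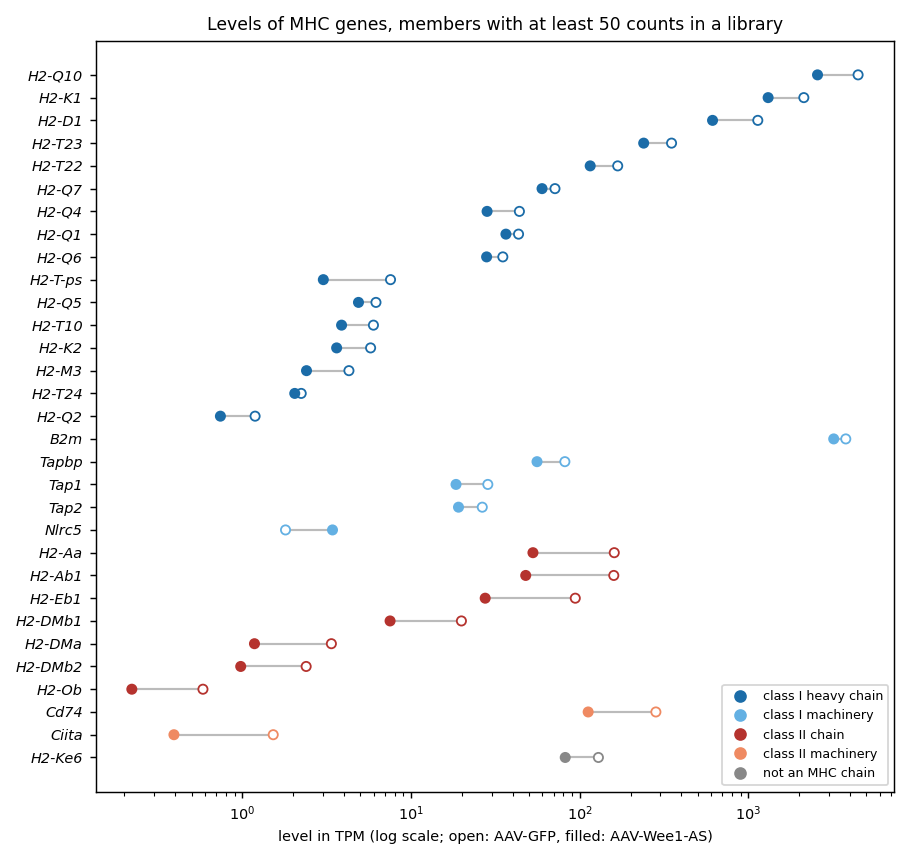
Levels in TPM (log axis) of the MHC genes that reached 50 counts in either library; open circles are the AAV-GFP and filled circles the AAV-Wee1-AS library, 1 library each. *H2-Q10*, *B2m* and *H2-K1* have the highest levels, the gap between the circles is wide for the class II genes, and *Nlrc5* is the only gene whose filled circle lies to the right.

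The nonclassical heavy chains mostly present restricted sets of peptides or regulate innate lymphocytes. *H2-T23*, the mouse Qa-1 gene and a ligand of NK cell receptors, had 15176 and 8792 counts (350 and 239 TPM) and a log2 ratio of -0.51. *H2-T22*, a ligand of some γδ T cells, had 9615 and 5565 counts and the same ratio of -0.51, and its close paralog *H2-T10* 571 and 314 counts and -0.58. *H2-M3*, which presents formylated peptides, had 201 and 96 counts and -0.78 (-1.15 to -0.43).

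The H2-Q genes other than *H2-Q10* stood nearer to 1, with 11903 and 7517 counts in sum and a log2 ratio of -0.39. Among them *H2-Q7*, a Qa-2 gene, had 3260 and 2283 counts (-0.24), *H2-Q6* had 2440 and 1656 (-0.28), and *H2-Q5* had 241 and 161 (-0.30). *H2-Q1* (3292 and 1962 counts, -0.47), *H2-Q4* (2590 and 1412, -0.60) and *H2-Q2* (80 and 43, -0.60) were lower. Paralogs limit these values, since *H2-Q7*, *H2-Q5* and *H2-Q6* share 13.5%, 12.9% and 10.8% of their 100-base windows with other genes, *H2-Q10* shares 8.80%, and *H2-D1* shares 4.64%, whereas *H2-K1* and the I-A and I-E chains share none.

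Among the remaining heavy chain symbols, *H2-K2* had 251 and 134 counts (-0.62), *H2-Bl* had 47 and 23 (-0.71, -1.54 to -0.00), and *H2-T24* had 165 and 133, with an interval of -0.37 to 0.31 around -0.03. The 2 class I genes past 2-fold were rare transcripts. The pseudogene *H2-T-ps* had 321 and 109 counts (-1.27, -1.61 to -0.96), and *H2-M2* had 14 and 0 counts, which is at least 3.85-fold lower when the AAV-*Wee1-AS* library is set to a floor of 3 counts, while the exact interval of its log2 ratio reached up to -1.45.

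The genes that assemble, load and control class I had ratios on both sides of 1. *Tap1* and *Tap2*, which pair to form the peptide transporter, had 2765 and 1518 counts (-0.59) and 2167 and 1328 counts (-0.43). *Tapbp*, tapasin, which holds empty class I molecules at the transporter, had 7384 and 4279 counts (-0.51). *B2m*, the light chain that every class I molecule needs, had 106613 and 76634 counts, 3773 and 3200 TPM, and a log2 ratio of -0.20 (-0.21 to -0.19). Per TPM of heavy chain, the *B2m* level was 0.445 with AAV-GFP and 0.638 with AAV-*Wee1-AS*. This order turned with the trends of GC content and transcript length removed, where *B2m* stood at -1.13, under *H2-K1* at -0.04 and *H2-D1* at -0.16. *Nlrc5* (chr8:94434335-94527272) was the sole MHC gene with a ratio above 1, at 451 and 722 counts, 1.80 and 3.42 TPM and a log2 ratio of 0.95 (0.78 to 1.13), which is 1.94-fold higher. A single *Nlrc5* model had 68 and 599 counts while the other detected models were lower, hence here too only the sum was compared. The transactivators thus differed in opposite directions, *Nlrc5* being higher and *Ciita* 2.89-fold lower, while both sets of chains were lower before the trends were removed. *H2-Ke6*, the gene that is no MHC chain, had 4094 and 2206 counts (-0.61, or 0.22 with the trends removed) and shares 92.0% of its 100-base windows with *Gm20427*.

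Set side by side, class II chains made up 4.23% (4.17 to 4.29) of all class I and class II chain counts in the AAV-GFP liver and 2.29% (2.23 to 2.36) in the AAV-*Wee1-AS* liver. In levels, there were 13.3 TPM of *H2-K1* for each TPM of *H2-Aa* with AAV-GFP and 24.8 with AAV-*Wee1-AS*. The difference between the classes exceeded counting error by far, but no spread between mice stands behind it.

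The log2 ratios of these libraries were lower the higher the GC content of the gene, and the MHC genes are GC-rich, so they were also set against genes of like GC content. Across all 14995 genes with a value, the Spearman coefficient of log2 ratio and GC content was -0.67, and the median log2 ratio over 10 groups of equal size ordered by GC content ran from 1.44 in the lowest to -0.68 in the highest. Over the 35 genes of the symbol rule alone, *H2-Ke6* included, the coefficient was -0.009. Genes are not independent replicates, and both coefficients describe these libraries. The median GC content was 54.4% for class I, 53.9% for class II and 49.8% for all genes. Of the 35 genes of the rule, 16 fell in the pair of groups between 53.5% and 57.7%, where all genes had medians of -0.48 and -0.60. The class I median of -0.58 lies at that level, and the class II median of -1.36 lies below it.

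**Figure D3:**
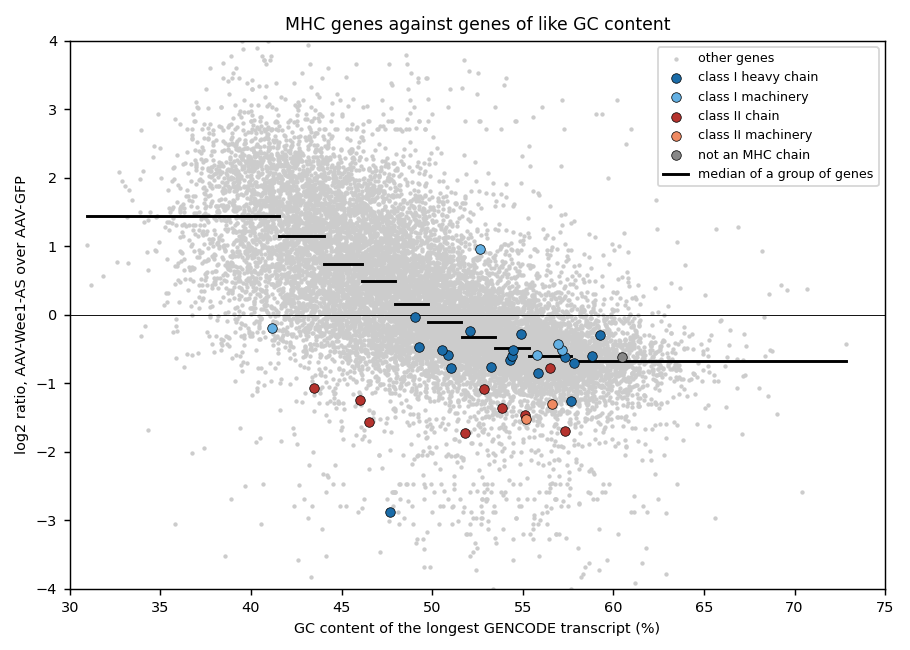
Log2 ratio of AAV-Wee1-AS over AAV-GFP (vertical axis) against GC content of the longest GENCODE transcript in percent (horizontal axis); grey points are other genes, coloured points MHC genes, and black lines the medians of 10 groups of genes ordered by GC content, which run from 1.44 to -0.68. The vertical axis ends at -4 and 4, past which some other genes lie; most class I genes lie near the lines, while most class II genes and *B2m* lie below them and *Nlrc5* above.

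With the trends of GC content and transcript length removed, the class I median was -0.043 and 14 of 23 genes lay below 0, while the class II median was -0.93 and all 11 genes lay below 0. Of all 14995 genes with a value, 7308 lay below 0 on this scale. Of the class II genes 5 were then more than 2-fold lower, against 8.12% of all genes (7.83% were higher). They were *H2-Aa*, *H2-Eb1*, *H2-Eb2*, *H2-Ob* and *Ciita*. By gene, *H2-K1* went to -0.04, *H2-D1* to -0.16 and *H2-Q10* to -0.52, whereas *H2-Ab1* went to -0.93, *Cd74* to -0.59 and *Ciita* to -1.37. *B2m*, which is poor in GC at 41.2%, went the other way, from -0.20 to -1.13, and *Nlrc5* to 0.77. *H2-M2* and *B2m* were then the 2 class I genes more than 2-fold lower, while *H2-T-ps* stood at -0.49. Signs turned for 8 of the 23 class I genes (*H2-Bl*, *H2-K2*, *H2-Q2*, *H2-Q5*, *H2-Q6*, *H2-T23*, *Tap2* and *Tapbp*), which then lay above 0. For *H2-Aa* the longest transcript has 3223 bases, against 1128 for the transcript paired with RefSeq. These lengths are 4328 and 1473 for *H2-Q10*, and 4209 and 1497 for *H2-Q7*. The *H2-Aa* value of -2.04 became -1.25 when GC content and length came from transcripts paired with RefSeq, a choice made after seeing the data. The *H2-Q10* value was then -0.01, and the *H2-Q7* value went from -0.09 to 0.56. Under that choice signs turned for 11 of 21 class I genes, *H2-K1*, *H2-Q4*, *H2-Q7* and *Tap1* among them, and 9 lay below 0.

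The neighbours of the MHC genes had medians near those of class I. Of 213 other genes listed within the same span of chromosome 17, 101 passed the count filter. Among these, 10 were more than 2-fold lower, against 8.43% of all genes, and 4 higher, against 22.5%. Their median was -0.48, or 0.05 with the trends removed. On that scale 7 of 98 were lower, against 8.12%, and 5 higher, against 7.83%. Their median GC content was 55.8%.

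Genes that act in the same pathways but lie outside the rule were listed by function. Over all genes, 8.43% were more than 2-fold lower and 22.5% higher, or 8.12% and 7.83% with the trends of GC content and length removed, and calls that changed with the trends are given both ways. The 10 genes of class I peptide loading and processing had a median of -0.26, and none was more than 2-fold lower. The immunoproteasome subunits *Psmb8*, *Psmb9* and *Psmb10*, which cut peptides for class I, had log2 ratios of -0.35, -0.64 and -0.54. With the trends removed, these were 0.12, -0.14 and 0.18, and the median of the list was 0.15. The chaperone *Calr* had -0.61, or -0.48 with the trends removed. *Erap1*, which trims peptides in the endoplasmic reticulum, had 1714 and 3945 counts (1.48), and the chaperone *Canx* 6991 and 11801 (1.03), both more than 2-fold higher. With the trends removed, these last values were 0.07 and -0.13. Of 8 genes of the class II compartment, none was more than 2-fold lower, and the median was -0.23. Cathepsin S (*Ctss*), which cuts the invariant chain, had 1982 and 1723 counts and a log2 ratio of 0.08, beside the -1.30 of *Cd74*, or -0.35 beside -0.59 with the trends removed. *Lgmn* and *Ifi30*, a protease and a thiol reductase of the same endosomes, had -0.76 and -0.71, or -0.38 and -0.15 with the trends removed. *March1*, a ubiquitin ligase that removes class II from the surface, was 3.68-fold higher at 35 and 111 counts. It was within 2-fold, at 0.59, with the trends removed.

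The factors that act with or upstream of CIITA and NLRC5 lay on both sides of 1. Of 16 regulators, 3 (*Creb1*, *Jak2* and *Nfyb*) were more than 2-fold higher and 1 (*Ifng*) lower, with a median of 0.06. *Rfx5*, *Rfxank* and *Rfxap*, the subunits of the X box factor RFX, had log2 ratios of 0.26, -0.62 and 0.61, and *Nfya*, *Nfyb* and *Nfyc*, those of the Y box factor, had 0.09, 1.14 and -0.19. *Creb1*, another factor of these promoters, had 96 and 404 counts (2.32). With the trends removed, *Jak2* alone stayed more than 2-fold higher, at 1.43, while *Creb1* stood at 0.56 and *Nfyb* at 0.09. Of the interferon-γ pathway, which induces *Ciita*, *Irf1* had -0.12, *Jak2* 2.44 and the receptor chain *Ifngr2* -0.91. *Ifng* itself had 10 and 2 counts, too few for a direction (interval -5.27 to 0.19). Among 5 costimulation genes, *Cd86* was 6.66-fold higher (24 and 142 counts) and *Cd274* 2.63-fold higher (79 and 174), while *Cd40* was 2.74-fold lower (67 and 19). After removal of the trends these log2 ratios were 1.92, 0.65 and -1.58.

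Markers of the cell types that carry class II were compared beside these values, and their part in the class II difference was not tested. The immune lists held genes on both sides of 1. Of 5 pan-leukocyte genes, *Coro1a* (-1.31), *Cd52* (-1.18) and *Laptm5* (-1.09) were more than 2-fold lower, and *Ptprc* (1.14) and *Cd53* (1.16) more than 2-fold higher, while the summed level of the list was 110 and 52.4 TPM. With the trends removed, none of the 5 was past 2-fold, at -0.53 for *Coro1a*, -0.82 for *Cd52*, -0.44 for *Laptm5*, -0.40 for *Ptprc* and 0.11 for *Cd53*. Of 9 dendritic cell markers, *Itgax* (421 and 73 counts, -2.22) and *Ccr7* (54 and 3 counts, -3.27, -6.21 to -2.27) were lower, *Clec9a* (18 and 36) and *Siglech* (15 and 34) were higher, and the sum was 7.17 and 5.08 TPM. After the trends were removed, *Itgax* stood at -2.11, *Ccr7* at -2.72, *Clec9a* at 0.40 and *Siglech* at 0.84. *Cd209a* (14 and 8 counts) and *Batf3* (25 and 24) passed 2-fold only on this scale, at -1.09 and 1.05. Before removal their log2 ratios were -0.45 (-1.99 to 0.82) and 0.20 (-0.65 to 1.09).

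B cell markers summed to 5.06 and 3.76 TPM over 8 genes. *Blk* was more than 2-fold lower, at 21 and 3 counts (-1.99, -4.92 to -0.79). *Cd79a* had 67 and 28 counts and *Cd79b* had 69 and 61, while *Ms4a1* and *Cr2* were at 0 with AAV-GFP and had 23 and 3 counts with AAV-*Wee1-AS*. *Blk* and *Ms4a1* stayed past 2-fold with the trends removed, at -1.45 and 2.65. Of the 9 monocyte and macrophage markers 5 were more than 2-fold lower, led by *Gpnmb* (831 and 62 counts, -3.43) and *Trem2* (322 and 62, -2.07), with *Chil3* at -1.56, *Cx3cr1* at -1.08 and *Ly6c2* at -1.003. With the trends removed 5 were again more than 2-fold lower, against 8.12% of all genes. The median was then -1.17, under the class II median of -0.93. All 9 lay below 0, though *Lyz2* only at -0.00085, beside 7308 of all 14995 genes. The sum of the 9 markers was 115 and 96.2 TPM, since *Lyz2* (0.11) made up most of it.

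Kupffer cell markers, those of the resident macrophages, summed to 413 and 331 TPM over 8 genes. *Marco* (1.62), *Vsig4* (1.53) and *Timd4* (1.42) were more than 2-fold higher. *Cd5l* (-0.74), *Csf1r* (-0.39), *Folr2* (-0.30) and *Clec4f* (-0.14) had ratios below 1, and *Adgre1* stood at 0.11. Only *Marco* stayed more than 2-fold higher with the trends removed, at 2.24, beside 0.91 for *Vsig4* and 0.79 for *Timd4*. *Cd5l* was then at -0.39, *Csf1r* at -0.11, *Folr2* at 0.08, *Clec4f* at 0.23 and *Adgre1* at -0.28. Sinusoidal endothelial markers, with none of 7 past 2-fold, summed to 186 and 160 TPM. T and NK cell markers summed to 6.35 and 5.27 TPM over 12 genes, of which *Cd8a* (31 and 4 counts) and *Nkg7* (51 and 20) were more than 2-fold lower and *Cd4* (47 and 81) higher. Free of the trends, these stood at -2.60, -0.46 and 1.32, and 3 genes of the list were lower and 2 higher. Stellate cell markers summed to 119 and 129 TPM over 7 genes, of which *Col1a1* (3620 and 603 counts, -2.30) and *Pdgfrb* (-1.08) were more than 2-fold lower and *Lrat* (1.48) and *Rgs5* (1.597) higher. Once the trends were removed, *Col1a1* (-1.99) and *Dcn* (-1.15) were lower and none was higher, with *Pdgfrb* at -0.86, *Lrat* at 0.15 and *Rgs5* at 0.37. Cholangiocyte markers summed to 44.1 and 37.9 TPM over 5 genes with none past 2-fold, and hepatocyte markers to 85017 and 95203 over 7, of which *Cps1* (1.22, or 0.44 with the trends removed) was more than 2-fold higher. Apart from *Cr2* and *Ms4a1*, every marker was detected in both libraries.

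**Figure D4:**
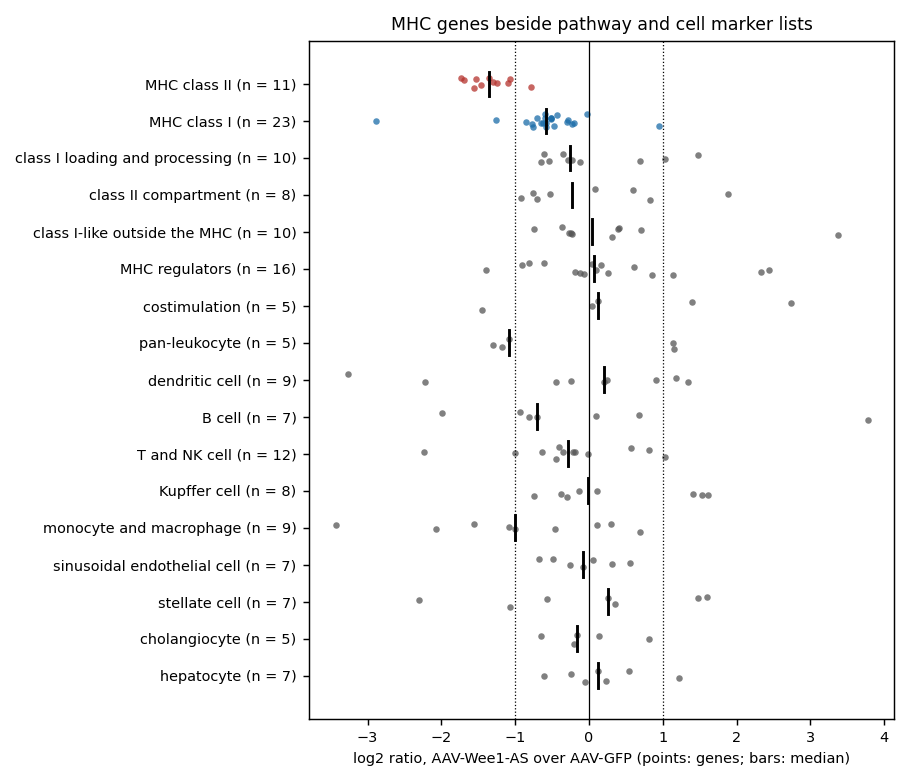
Log2 ratio of AAV-Wee1-AS over AAV-GFP (horizontal axis) for class II and class I MHC genes and for lists of pathway and cell marker genes; each point is a gene past the count filter, bars are medians, and dotted lines mark 2-fold. Class II has the lowest median at -1.36, followed by pan-leukocyte at -1.09 and monocyte and macrophage markers at -1.003, and the marker lists spread to both sides of 0. With the trends of GC content and length removed, which is not drawn, the monocyte and macrophage median of -1.17 lay under that of class II at -0.93.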

How the data were processed

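Poly-A liver RNA had been sequenced as paired ends with a stranded kit, and 2 libraries, 1 per group, were analysed here. In the design text 4 samples are mentioned, and the heat map of the study draws 3 columns per group. How these relate to the 2 libraries is not given in the sources used here. Per the labels, the authors' processing notes name Trimmomatic 0.38, HISAT2 2.1.0, SAMtools 1.9, StringTie 2.1.3b and the build mm10. The authors deposited a table of 129299 RefSeq transcripts with estimated counts (whole numbers shared out between overlapping transcripts, not normalized), FPKM values and TPM values. The FPKM and TPM values deposited by the authors are scaled by transcript length and to the library. No column of other samples was present (0).

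Estimated counts were summed per symbol. Genes reaching 10 counts in either library were kept and scaled by TMM (edgeR 4.0.16, R 4.3.3; factors 1.03 and 0.975), and log2 ratios were taken with a prior count of 2. A gene was called past a ratio of 2 or 0.5, the fold limits used in the study. Intervals are exact (Clopper-Pearson, 95%) and cover counting error only. Each gene found by the symbol rule is accounted for, and those past the count filter are named. Of other lists, genes past 2-fold and others with a role in the text are named. The members and lists were chosen with earlier results of these data known. GC content and length came from the longest GENCODE M21 transcript (94.6% of kept genes), and trends were removed by lowess fits (span 0.3, 5 cycles). Steps were tested on simulated data. Tools were matplotlib 3.10.9, statsmodels 0.14.6, pandas 2.3.3, scipy 1.17.1 and numpy 2.4.6 under Python 3.11.15. Alternatives tried were the upper quartile, library totals, size factors of DESeq2 1.42.0, other count filters, a prior count of 0.5, deposited FPKM and TPM with a pseudocount of 1, removal of trends, and transcripts in place of genes.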

Additional observations from a re-analysis of the deposited data

How the results depend on the processing

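The class II genes were below the class I genes in median under every alternative that was run, and no class II gene changed sign except *H2-Oa* under removal of trends with RefSeq-paired transcripts, an alternative chosen after seeing the data. The count of 10 class II genes past 2-fold was 5 with FPKM (8.43% of all genes were past 2-fold in either direction), 6 with TPM (12.9%), 5 with the trends of GC content and length removed (15.9%), and 5 with RefSeq-paired transcripts (14.1%). With transcripts in place of genes it was 18 of 19, 14 lower and 4 higher, against 54.6% of all transcripts. The class II median of -1.36 was -0.77 with FPKM, -1.003 with TPM, -0.93 with trends removed and -0.88 with RefSeq-paired transcripts. The pseudocount of 1 pulls genes of low level toward 0 by its construction. The count of 2 class I genes past 2-fold was 1 with at least 10 counts in both libraries, 1 with at least 50 counts in a library, 0 with FPKM, 1 with TPM, and 28 of 57 transcripts, 17 lower and 11 higher, against the same 54.6%. The class I median of -0.58 was -0.71 with the upper quartile, which moved the median of all genes to -0.13, was -0.043 with trends removed, and was 0.063, reversed in sign, with RefSeq-paired transcripts. Whether the trend with GC content arose in the tissue or in the libraries was not tested. Library totals, DESeq2 size factors, a prior count of 0.5 and a filter of 1 count gave the same counts of class I and class II genes past 2-fold.

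No paired analysis was possible because each group has 1 library, and leaving out a replicate was not possible either. Depth limits *H2-Eb2*, *H2-Oa*, *H2-Bl*, *H2-T24* and *H2-M2*, whose intervals are wide or reach 0 or lack a lower bound.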

Other observations

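Class I-like molecules encoded outside the MHC share the fold of the heavy chain, and some pair with *B2m*. They were read in the same libraries. Of 10 such genes, only *Ulbp1* was more than 2-fold higher, against 22.5% of all genes, and none was lower, against 8.43%. The median log2 ratio was 0.05. *Azgp1*, a secreted zinc-binding glycoprotein and the most abundant of them, had 94476 and 66701 counts and a log2 ratio of -0.22. *Fcgrt*, the heavy chain of the neonatal Fc receptor, which salvages albumin and IgG, had 18813 and 9246 counts and a log2 ratio of -0.75 (-0.78 to -0.71), or -0.04 with the trends of GC content and length removed. *Cd1d1*, which presents lipids to NKT cells, had 6888 and 7443 counts (0.39), *Mr1*, which presents vitamin metabolites to MAIT cells, had 141 and 191 (0.71), and *Hfe*, which acts in iron sensing, had 3856 and 2698 (-0.24). *Ulbp1*, a ligand of the receptor NKG2D, was at 0 with AAV-GFP and had 17 counts with AAV-*Wee1-AS*. With the trends removed, *Raet1e*, another ligand of this receptor, and *Hfe* had the lowest ratios of the list, -0.70 and -0.61. The median of the list was then -0.12, and *Mr1* stood at -0.20.

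The *H2-K1* counts were spread differently over its transcript models. The main model took 96.7% of them with AAV-GFP and 85.9% with AAV-*Wee1-AS*, and a second model had 670 and 4629 counts. All of these models share most of their sequence, and the estimated counts are shares assigned between them.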
